A study of Mus musculus with 9 samples.

Results

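MHC class I presentation displays peptides from a cell's own proteins on its surface, and 9 genes of this pathway were followed together with Cd74 in RAW264.7 cells, a mouse macrophage line, after siRNA transfection and LPS. The 10 genes were B2m, H2-D1, H2-K1, H2-T23, Tap1, Tap2, Tapbp, Nlrc5, Erap1 and Cd74. They were the rows of the deposited table whose Ensembl identifier carries these symbols in GENCODE M21, and each symbol matched 1 of the 28137 identifiers. The genes were selected from their values in these same libraries, so their levels and differences are given as a description, with no p-value.

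The proteasome and cytosolic peptidases cut proteins into peptides, and TAP, a transporter made of Tap1 and Tap2, carries them into the endoplasmic reticulum (ER). There Erap1 trims them, and tapasin (Tapbp) holds the transporter beside an empty class I molecule, which is a heavy chain such as H2-K1 or H2-D1 paired with beta-2-microglobulin (B2m). Nlrc5 is a transcriptional coactivator of class I genes that acts through proteins bound to their promoters. Cd74, the invariant chain, belongs to the class II pathway, where it blocks the peptide groove of new class II molecules, and it is also a surface receptor for the cytokine Mif.

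There were 3 libraries for each of 3 groups: NC siRNA (the control siRNA), SFRP2 siRNA against Sfrp2, which encodes a secreted modulator of Wnt signaling, and RAB6A siRNA against Rab6a, which encodes a Golgi transport GTPase. In all groups the cells received 60 nM siRNA for 6 h, complete medium for 12 h and then LPS at 100 ng/ml, the bacterial lipopolysaccharide that drives macrophages to an inflammatory phenotype, and RNA was taken 24 h later. The study's methods add interferon-gamma, a strong inducer of these genes, to the polarizing medium, whereas the sample labels name LPS alone, so that it is not settled here whether the cells saw interferon-gamma. The methods also give a lower siRNA concentration and a different culture time after transfection, and the values above are those of the labels. No library without siRNA or without LPS was analysed here. The study says in general that its data stand for independent experiments, but nothing ties these libraries to separate cultures, and p-values below measure the spread between libraries, which may be technical. It is also not stated whether the 3 SFRP2 siRNA libraries received the same siRNA. RAW264.7 cells derive from BALB/c mice, whose class I alleles (H-2d) differ from those of the reference strain C57BL/6 (H-2b), and reads of the polymorphic heavy chains may have been lost or moved between genes at alignment.

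Depth recovered from the values was 32758729 to 47149258 reads per library. Each of the 10 genes held at least 1158 reads in every library. The RAB6A siRNA libraries stood apart from the rest, with 9418 of 12712 genes differing from NC siRNA at an adjusted p under 0.05 (limma), and the mitochondrial mRNA mt-Co1 took 9.07% ± 0.55 of their reads (SD, n = 3) against 3.59% ± 0.21 in NC siRNA and 4.04% ± 0.25 in SFRP2 siRNA. The part of this shift in the values below was not tested. Rab6a itself was at 25.7 ± 1.5 FPKM in NC siRNA, 27.0 ± 1.5 in SFRP2 siRNA and 20.7 ± 0.4 in RAB6A siRNA. The RAB6A siRNA libraries were below all others, but 38.2% of the 12712 genes were also lower without overlap against NC siRNA. The lower Rab6a level alone thus does not check the RAB6A siRNA label. Sfrp2 held 2 to 4 reads in each of the 9 libraries, too few to check the SFRP2 siRNA label. Summed over 8 macrophage markers, the level was 3900 to 4891 FPKM across the libraries, most of it Cd68 and Cd14. Single markers differed in RAB6A siRNA, where the mean of Lyz2 was 214 FPKM against 872 in NC siRNA and that of Csf1r 27.0 against 73.6. The mean of Fcgr1 was 39.9 against 66.6 and that of Cd14 1943 against 1679. Adgre1 was at 56.3 in both groups, Itgam at 24.7 against 23.1, Cd68 at 1682 against 1850 and Mertk at 0.038 against 0.025. The part of these differences in the values below was not tested. The markers of B cells, which express Cd74 and class II strongly, summed to 0.303 to 0.593 FPKM. Dendritic cell markers summed to 1.10 to 1.63 FPKM in NC siRNA and SFRP2 siRNA and to 0.167 to 0.317 in RAB6A siRNA, a difference carried by Xcr1 (mean 1.12 FPKM in NC siRNA and 0.049 in RAB6A siRNA), while Ccr7 was at 0.022 and 0.136. T cell markers summed to 2.87 to 6.95 FPKM, with Lck as the highest in every group, and fibroblast and epithelial markers to 1.61 to 4.27.

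Class I promoters carry a conserved module that Nlrc5 acts on, in which the X box is bound by RFX and by CREB/ATF factors and the Y box by NF-Y. It lies below an enhancer with NF-kappa-B and IRF sites. RefSeq promoter windows (GRCm38.p6, 250 bases before to 50 after the start) were found for 7 of the 10 genes. Those of Tap2, Nlrc5 and Cd74 were not analysed here. The windows of B2m and H2-K1 are shown because they hold this module in the light chain gene and in a heavy chain gene. Capitals mark matches to a kappa-B motif (GGGANNNNCC), an IRF motif (AANNGAAA) and the fixed letters of an X2 and Y block (TGACG, 20 free bases, ATTGG), each searched on both strands. Both kappa-B stretches hold 2 matches that overlap, 1 on each strand.
B2m, chr2:122147542-122147685, plus strand, bases -145 to -2 from the start: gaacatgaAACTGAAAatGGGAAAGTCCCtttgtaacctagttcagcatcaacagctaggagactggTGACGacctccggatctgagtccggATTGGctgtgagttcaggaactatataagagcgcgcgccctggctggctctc
H2-K1, chr17:34000348-34000466, minus strand, bases -119 to -1: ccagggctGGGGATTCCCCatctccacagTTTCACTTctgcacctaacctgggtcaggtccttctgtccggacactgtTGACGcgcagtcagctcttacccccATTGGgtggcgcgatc

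The X2 and Y block of 30 bases was present in B2m, H2-K1 and H2-D1 among the 7 genes. It was in 1 of the 78 other pathway genes that had a window, the heavy chain gene H2-M3, and in 31 of all 32851 RefSeq windows (0.0944%). Its spacing was written down after these sequences had been read, so the match is a description of these promoters and not a site shown to be bound. The 4 blocks are set side by side because the fixed letters stand at the same distance while the bases between them differ from gene to gene.
B2m, chr2:122147609-122147638, plus strand: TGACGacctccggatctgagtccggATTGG
H2-K1, chr17:34000359-34000388, minus strand: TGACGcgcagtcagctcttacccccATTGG
H2-D1, chr17:35262993-35263022, plus strand: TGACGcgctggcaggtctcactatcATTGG
H2-M3, chr17:37270188-37270217, plus strand: TGACGcttctccaattcccattctaATTGG

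The kappa-B motif was in 20.7% of all windows and, of the 7 genes, in B2m, H2-D1 and H2-K1. The IRF motif was in 23.9% of all windows and in B2m, H2-D1, H2-K1, H2-T23 and Erap1. No match of these letters lay in the windows of Tap1 and Tapbp. The 250 bases before the starts of Tap1, Tapbp, H2-D1 and Erap1 lie within GENCODE M21 exons, as do 154 of those of H2-T23, and Tap1 faces the immunoproteasome gene Psmb9 head to head. In these reference sequences B2m, H2-D1 and H2-K1 thus carried all 3 motifs, with the X2 and Y block nearest the start. The BALB/c sequences were not examined, and a gene without a match may hold the module with other letters or spacing. The kappa-B match lay farthest from the start in H2-D1 and H2-K1 and the IRF match in B2m. The levels of the genes with and without a match to the block are given next.

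**Figure D1:**
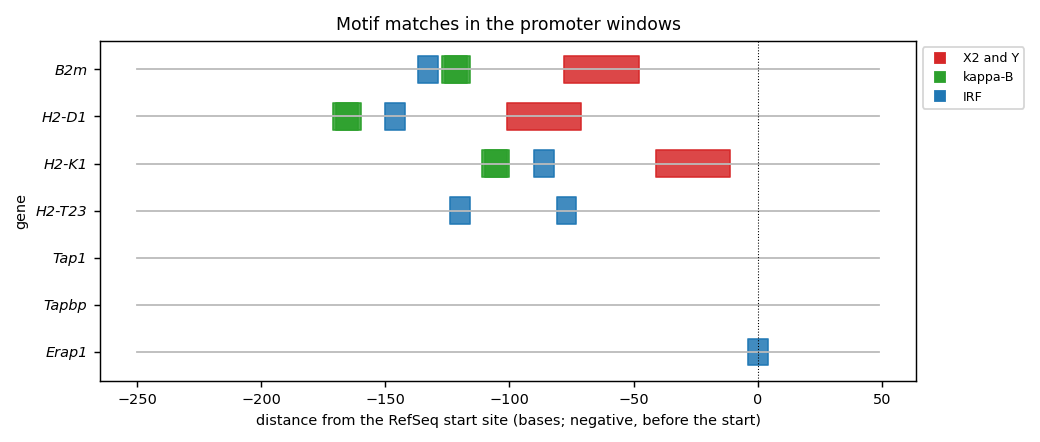
Positions of the motif matches on the RefSeq promoter windows of 7 genes. The horizontal axis gives bases from the start site, grey lines are the windows, and bars are matches to the X2 and Y block (red), the kappa-B motif (green) and the IRF motif (blue). B2m, H2-D1 and H2-K1 hold all 3 motifs, Tap1 and Tapbp none.

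The light chain B2m (chromosome 2, 122147686 to 122153083, GENCODE M21) was the most abundant of the 10 genes. It stood at 3466, 4044 and 4012 FPKM in NC siRNA and at 3732, 3762 and 4015 in SFRP2 siRNA. In RAB6A siRNA it stood at 8314, 8040 and 7419 FPKM. All 3 RAB6A siRNA libraries were above the other 6, whereas the NC and SFRP2 siRNA values overlapped. The RAB6A siRNA mean was 2.06 times that of NC siRNA (log2 fold change 1.05 ± 0.11, standard error of the limma fit), and B2m took 0.682% ± 0.039 of reads there against 0.330% ± 0.028. With a correction for GC content and transcript length, the log2 fold change was 0.58, and on quantile-normalized values it was 1.38. In SFRP2 siRNA the log2 fold change against NC siRNA was 0.00 ± 0.08.

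The heavy chain H2-D1, a classical class I molecule that presents peptides to CD8 T cells (chromosome 17, 35262730 to 35267499), showed all 3 groups apart. It was at 144.1, 133.9 and 144.7 FPKM in NC siRNA, at 127.1, 118.1 and 106.5 in SFRP2 siRNA and at 284.6, 287.7 and 231.6 in RAB6A siRNA. The log2 fold change against NC siRNA was 0.92 ± 0.09 in RAB6A siRNA and -0.27 ± 0.07 in SFRP2 siRNA. H2-K1, the other classical heavy chain of the list (chromosome 17, 33996017 to 34000347), had the same order of groups. Its FPKM was 61.1, 61.6 and 66.7 in NC siRNA, 53.5, 52.3 and 52.4 in SFRP2 siRNA and 99.9, 105.7 and 85.5 in RAB6A siRNA. The log2 fold changes of H2-K1 were 0.61 ± 0.09 in RAB6A siRNA and -0.26 ± 0.05 in SFRP2 siRNA. On quantile-normalized values the RAB6A siRNA log2 fold change was 0.65 for H2-D1 and 0.66 for H2-K1.

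H2-T23 encodes Qa-1, a nonclassical heavy chain that NK cells read through CD94/NKG2A (chromosome 17, 36029773 to 36032855). It stood at 50.6, 49.3 and 52.6 FPKM in NC siRNA, at 42.4, 41.5 and 39.9 in SFRP2 siRNA and at 69.9, 73.3 and 64.5 in RAB6A siRNA, again with no overlap between groups. The log2 fold change was 0.44 ± 0.06 in RAB6A siRNA (0.54 on quantile-normalized values) and -0.30 ± 0.05 in SFRP2 siRNA. Heavy chains resemble each other, and 14.3% of the 50-base windows of H2-D1 transcripts, 8.11% of those of H2-K1 and 15.0% of those of H2-T23 also occur in another gene, so that reads could be split between them. None of the B2m windows does.

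**Figure D2:**
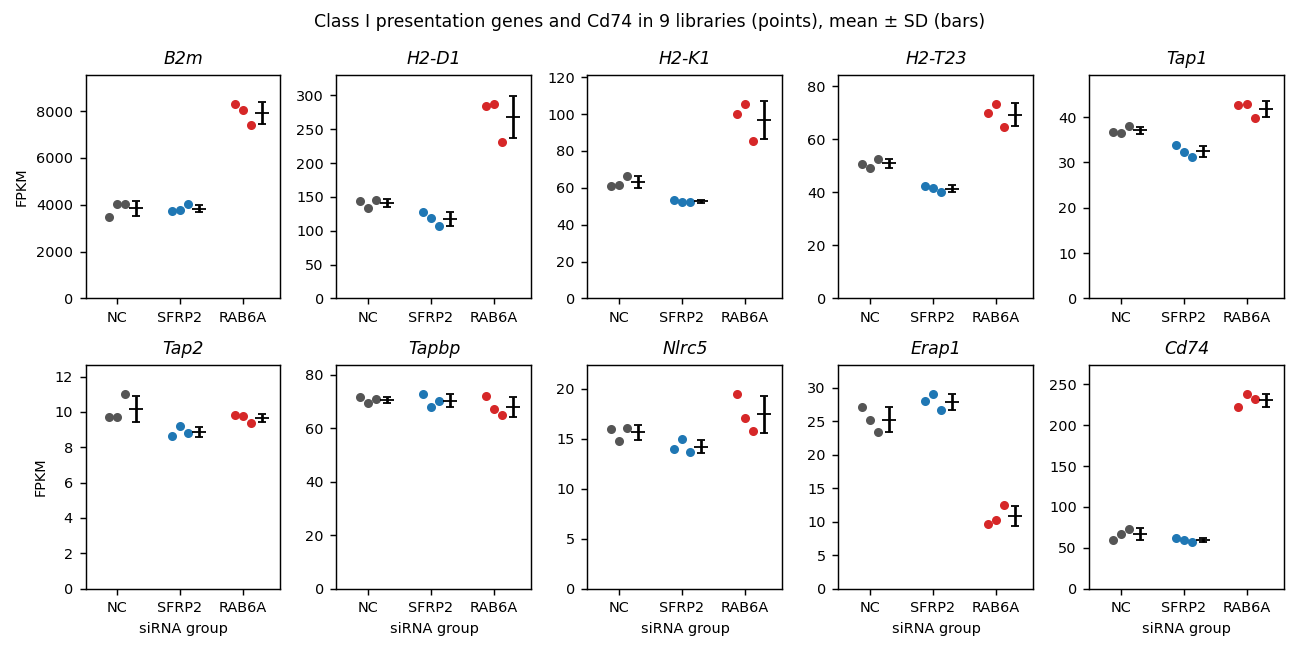
FPKM of the 10 genes in each of the 9 libraries (points), with the group mean ± SD beside them. Each panel starts at 0 and has its own scale. B2m, H2-D1, H2-K1, H2-T23 and Cd74 are highest in RAB6A siRNA, Erap1 is lowest there, and H2-D1, H2-K1, H2-T23, Tap1 and Tap2 are lower in SFRP2 siRNA than in NC siRNA.

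The ratio of light chain to heavy chain depended on which heavy chains were summed. B2m over the sum of H2-K1 and H2-D1 was 18.9 ± 1.9 in NC siRNA, 22.7 ± 2.4 in SFRP2 siRNA and 21.8 ± 1.5 in RAB6A siRNA (SD, n = 3). These ratios are of FPKM, a value per length, and the 3 ranges overlapped between neighbouring groups. B2m over all 17 H2 heavy chains with values was 7.81 ± 0.79 in NC siRNA, 8.75 ± 0.79 in SFRP2 siRNA and 13.5 ± 0.5 in RAB6A siRNA. The RAB6A siRNA libraries, at 12.9 to 14.0, were above all others on the second ratio. H2-T24, which made up a large share of the H2 sum in NC siRNA, was much lower in RAB6A siRNA, as given below.

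The transporter genes varied less than the heavy chains. Tap1 (chromosome 17, 34187553 to 34197225) stood at 36.8, 36.4 and 38.0 FPKM in NC siRNA, at 33.7, 32.3 and 31.2 in SFRP2 siRNA and at 42.6, 42.9 and 39.8 in RAB6A siRNA. The groups did not overlap, and the log2 fold changes were 0.17 ± 0.05 in RAB6A siRNA and -0.19 ± 0.05 in SFRP2 siRNA. On quantile-normalized values the former was 0.34. Tap2 (chromosome 17, 34203527 to 34216321) stood at 9.72, 9.73 and 11.02 FPKM in NC siRNA, at 8.64, 9.20 and 8.82 in SFRP2 siRNA and at 9.81, 9.76 and 9.37 in RAB6A siRNA. Its RAB6A siRNA values overlapped those of NC siRNA, with 1 library below the NC siRNA range (-0.07 ± 0.07), and its SFRP2 siRNA values were below both other groups (-0.19 ± 0.07 against NC siRNA). The 2 subunits pair one to one, and Tap1 over Tap2 was 3.66 ± 0.18 in NC siRNA, 3.65 ± 0.22 in SFRP2 siRNA and 4.33 ± 0.08 in RAB6A siRNA.

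Tapbp, the bridge between transporter and heavy chain (chromosome 17, 33915899 to 33929292), varied little across the study. Its FPKM was 71.8, 69.5 and 71.0 in NC siRNA, 72.9, 68.1 and 70.1 in SFRP2 siRNA and 72.0, 67.2 and 64.9 in RAB6A siRNA, and all groups overlapped. The log2 fold changes were -0.06 ± 0.06 in RAB6A siRNA and -0.01 ± 0.04 in SFRP2 siRNA. With the GC and length correction they were -0.08 and 0.09. RAB6A siRNA against SFRP2 siRNA was at -0.05, or at -0.17 with that correction. On the opposite strand, Gm19412 covers 24.9% of the exon bases of Tapbp, and the counting is not stated to use strand.

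Erap1, the ER aminopeptidase that trims peptides to the length class I molecules hold (chromosome 13, 74639568 to 74693201), was the only one of the 10 genes that was lower in all RAB6A siRNA libraries than in all NC siRNA libraries. It stood at 27.1, 25.2 and 23.5 FPKM in NC siRNA, at 28.04, 29.1 and 26.7 in SFRP2 siRNA and at 9.66, 10.2 and 12.5 in RAB6A siRNA. The RAB6A siRNA mean was 0.427 of the NC siRNA mean (log2 fold change -1.23 ± 0.11), and the SFRP2 siRNA values overlapped those of NC siRNA (0.15 ± 0.07, or 0.09 without NC siRNA library 3 and 0.05 with the GC and length correction). Cast, the calpain inhibitor gene on the opposite strand, shares 11.5% of the Erap1 exon bases. It was at 3.24 ± 0.14 FPKM in NC siRNA, 3.24 ± 0.33 in SFRP2 siRNA and 5.71 ± 0.19 in RAB6A siRNA, and its part in the Erap1 value was not tested.

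Nlrc5, the coactivator (chromosome 8, 94434356 to 94527272), did not follow the heavy chains in size. It stood at 16.0, 14.8 and 16.1 FPKM in NC siRNA, at 14.0, 15.0 and 13.7 in SFRP2 siRNA and at 19.5, 17.0 and 15.8 in RAB6A siRNA. The lowest RAB6A siRNA library lay inside the NC siRNA range, as did the highest SFRP2 siRNA library. The log2 fold changes were 0.15 ± 0.09 in RAB6A siRNA and -0.14 ± 0.06 in SFRP2 siRNA. The former was 0.27 on quantile-normalized values, 0.23 with the GC and length correction and 0.20 by voom on recovered reads. Without RAB6A siRNA library 1 it was 0.07, and without RAB6A siRNA library 3 it was 0.22.

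Cd74 had the largest difference of the 10 genes in RAB6A siRNA. It stood at 59.4, 67.2 and 73.4 FPKM in NC siRNA, at 61.3, 59.0 and 56.8 in SFRP2 siRNA and at 222.0, 238.3 and 231.5 in RAB6A siRNA. The RAB6A siRNA mean was 3.46 times that of NC siRNA (log2 fold change 1.79 ± 0.08) and the libraries were far from the other 6. With the GC and length correction this log2 fold change was 1.51. In SFRP2 siRNA the values overlapped the NC siRNA range (-0.17 ± 0.08), and the difference ranged from -0.25 without NC siRNA library 1 to -0.10 without NC siRNA library 3. None of the 50-base windows of Cd74 occurs in another gene.

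**Figure D3:**
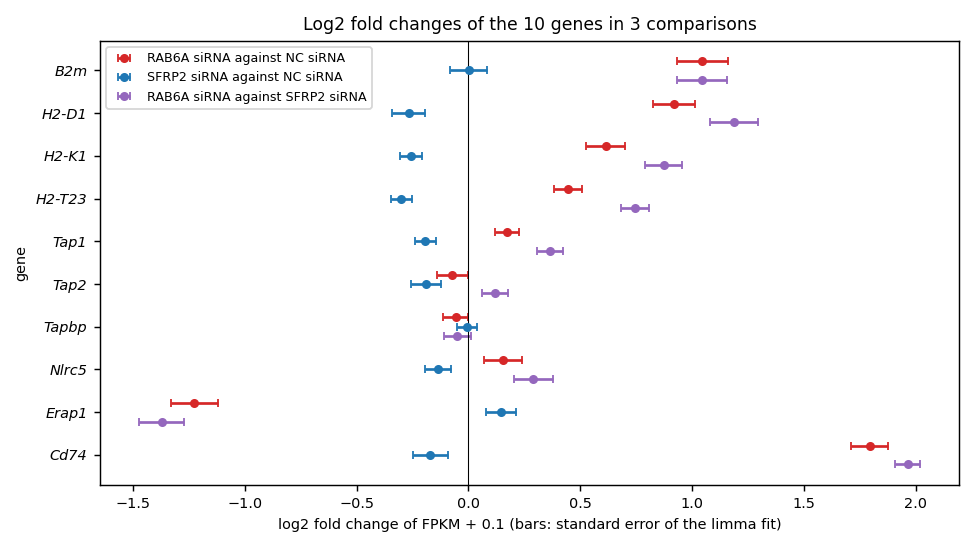
Log2 fold change of FPKM + 0.1 for the 10 genes in 3 comparisons (points) with the standard error of the limma fit (bars), 3 libraries per group. Cd74 is at 1.79 and Erap1 at -1.23 in RAB6A siRNA against NC siRNA, and the SFRP2 siRNA values lie between -0.30 and 0.15.

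Read as a list against NC siRNA, 6 of the 10 genes were higher in all RAB6A siRNA libraries, 1 was lower and 3 overlapped. Of all 12712 genes tested in this comparison, 39.2% were higher without overlap and 38.2% lower, and because the same values chose the genes, nothing is read from these counts. The median log2 fold change of the 10 genes was 0.31, beside 0.03 over all genes. Against SFRP2 siRNA, 8 genes were higher in all RAB6A siRNA libraries, Erap1 was lower and Tapbp overlapped, with 39.3% and 37.7% of 12764 genes higher and lower without overlap. The 2 comparisons share the RAB6A siRNA libraries. In this comparison the log2 fold change was 1.96 ± 0.06 for Cd74, 1.19 ± 0.11 for H2-D1, 1.05 ± 0.11 for B2m (0.69 with the GC and length correction), 0.87 ± 0.08 for H2-K1, 0.74 ± 0.06 for H2-T23 and -1.37 ± 0.10 for Erap1. On quantile-normalized values B2m was at 1.37 and H2-D1 at 0.87.

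In SFRP2 siRNA against NC siRNA, 5 of the 10 genes were lower in all 3 libraries without overlap (H2-D1, H2-K1, H2-T23, Tap1 and Tap2), none was higher, and 8 had a log2 fold change below 0. Over all 12017 genes tested, 13.9% were lower and 10.9% higher without overlap. The median of the 10 was -0.18, beside -0.01 over all genes. Across genes, the SFRP2 siRNA log2 fold change went down with GC content (Spearman rho -0.48 over 11903 genes, which share the same 6 libraries), and corrected for GC content and length the median of the 10 was -0.10. With this correction H2-T23 was at -0.22, H2-D1 and H2-K1 both at -0.18, Tap1 at -0.12, Tap2 at -0.10 and Cd74 at -0.08. The part of base composition in these differences was not tested beyond that. limma called 0 of the 12017 genes in this comparison (0.0% higher and 0.0% lower), 2220 had an unadjusted p under 0.05, and voom on the recovered reads called 47. The study used a test for counts and a cut on fold change that was not applied here. It reports genes higher and genes lower in RAW264.7 cells with SFRP2 siRNA. It lists antigen processing and presentation among the pathways regulated, so the 0 here departs from its result, with an unlike test and threshold.

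The wider pathway was described with 5 lists that leave out the 10 genes, in all 95 genes of which 88 had values and 72 were tested in RAB6A siRNA against NC siRNA. Of the 72, 30 rose and 26 fell at an adjusted p under 0.05. Among all genes, 37.6% rose and 36.5% fell. The median log2 fold change of the 72 was 0.06, against 0.03 for all genes. Against SFRP2 siRNA, 34 rose and 24 fell of 72, with 37.6% and 35.8% among all genes.

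Of the 11 other class I heavy chains tested in RAB6A siRNA against NC siRNA, 6 rose, 3 fell and 2 did not pass the test. Among all genes 37.6% rose and 36.5% fell. H2-T24, a nonclassical heavy chain, was the most abundant of the 11 in NC siRNA. It stood at 114.3, 113.1 and 99.6 FPKM in NC siRNA, at 126.0, 128.3 and 108.8 in SFRP2 siRNA and at 23.3, 25.1 and 27.2 in RAB6A siRNA. The RAB6A siRNA libraries were far below the other 6, a log2 fold change of -2.11 ± 0.08 (limma, adjusted p = 1.52e-06). Mr1, which presents vitamin B metabolites to MAIT cells, rose from 1.44 ± 0.02 to 4.92 ± 0.36 FPKM (adjusted p = 3.44e-06). Fcgrt, the heavy chain of the neonatal Fc receptor, which pairs with B2m and carries IgG and albumin, rose from 1.01 ± 0.09 to 2.85 ± 0.73 FPKM (log2 fold change 1.38 ± 0.20, or 0.92 with 1 FPKM added; adjusted p = 0.000459 with 0.1 added).

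Hfe, a heavy chain relative that senses iron through the transferrin receptor, fell by 1.45 on the log2 scale (adjusted p = 0.00193), or by 0.72 with 1 FPKM added. Its RAB6A siRNA mean of 0.480 FPKM was below the filter of 0.5 FPKM. Hfe thus entered the test through the NC siRNA libraries, where it was high, and its call is only a description. H2-M3, which presents formylated peptides of bacteria and mitochondria and carries the X2 and Y block, stood at 81.5, 68.0 and 77.9 FPKM in NC siRNA and at 58.9, 57.0 and 56.3 in RAB6A siRNA. It fell by 0.40 on the log2 scale (adjusted p = 0.00197), or by 0.60 with the GC and length correction. H2-T10 (0.89 ± 0.11), H2-T22 (0.42 ± 0.08), H2-Q4 (0.39 ± 0.07) and H2-Q2 (0.56 ± 0.21) rose. The H2-Q2 call (adjusted p = 0.0428) was lost in 5 of the 6 fits that left out a library, with the GC and length correction (0.36), on quantile-normalized values (0.24), with all 9 libraries in 1 fit and without the filter on low values. H2-T10 and H2-T22 share 31.6% and 35.8% of their 50-base windows with other genes. H2-Q6 (0.22 ± 0.17) and H2-Q1 (-0.06 ± 0.12) did not pass the test.

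**Figure D4:**
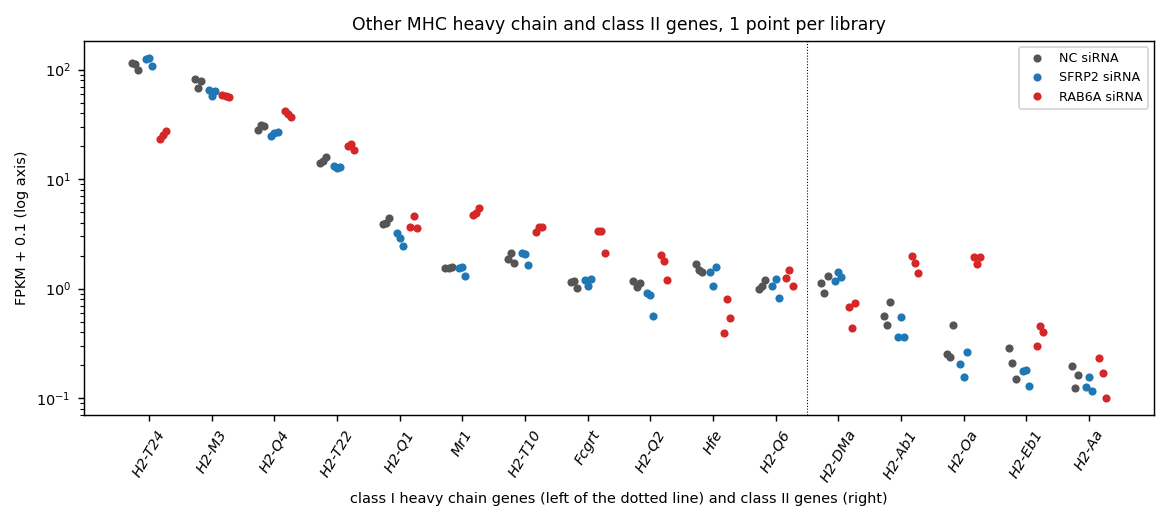
FPKM + 0.1 on a log axis for 11 other class I heavy chain genes and 5 class II genes, 1 point per library. H2-T24 is lowest in the RAB6A siRNA libraries, at 23.3 to 27.2 FPKM, and H2-Oa and H2-Ab1 are highest there, below 2 FPKM.

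Of 15 genes of peptide loading in the ER, 6 rose, 6 fell and 3 did not pass the test, shares near those of all genes (37.6% and 36.5%). Hspa5 (BiP), the ER chaperone, was at 257.0, 267.6 and 256.8 FPKM in NC siRNA and at 518.8, 536.4 and 561.4 in RAB6A siRNA, a log2 fold change of 1.05 ± 0.06 (adjusted p = 5.42e-06; 0.45 on quantile-normalized values). Of the channel subunits, Sec61g (0.98 ± 0.09) and Sec61b (0.84 ± 0.18) rose, the latter with an adjusted p of 0.00398 that became 0.0507 with the GC and length correction. Sec61a1, of the same channel, fell (-0.56 ± 0.09, adjusted p = 0.000747). Calr (-0.33 ± 0.08) and Canx (-0.64 ± 0.08), of the same list, also fell. Lnpep, an endosomal aminopeptidase used in cross-presentation, rose by 0.65 ± 0.07. Tapbpl (TAPBPR), the tapasin relative that edits peptides, fell from 10.3, 10.1 and 9.54 FPKM to 6.24, 5.88 and 5.41 (-0.77 ± 0.07, adjusted p = 5.54e-05). Tapbp, described above, overlapped between the same libraries.

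Proteasome and cytosolic peptidase genes gave 7 up, 5 down and 4 not passing the test of 16, beside 37.6% up and 36.5% down among all genes. Psmb6, a catalytic subunit of the constitutive proteasome, rose by 0.89 ± 0.08 on the log2 scale. Psme3 (PA28 gamma), an activator of nuclear proteasomes, fell from 90.8 ± 2.1 to 30.1 ± 3.6 FPKM (-1.59 ± 0.09, adjusted p = 4.34e-06). The peptidases Thop1 (-1.01 ± 0.06) and Tpp2 (-0.71 ± 0.06) fell and Dnpep (0.83 ± 0.08) rose. Among these 5 the smallest difference was that of Tpp2, and for each of them the 3 RAB6A siRNA libraries lay outside the NC siRNA range. The other PA28 genes went the other way from Psme3. Psme1 rose by 0.69 ± 0.07 and Psme2 by 0.41 ± 0.06 (0.27 with the GC and length correction). Of the immunoproteasome genes, Psmb9 rose (0.57 ± 0.11), and Psmb8 (-0.11 ± 0.06) and Psmb10 (-0.01 ± 0.12) did not pass the test.

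Of 20 regulators of MHC transcription, 7 rose, 9 fell and 4 did not pass the test, beside 37.6% rising and 36.5% falling among all genes. Nfyc, a subunit of the Y box factor NF-Y, fell from 19.9, 19.2 and 22.02 FPKM to 5.64, 6.33 and 7.27 (-1.66 ± 0.10, adjusted p = 7.12e-06). Irf1, an interferon-induced activator of class I genes, fell from 31.3, 31.7 and 31.0 FPKM to 15.1, 14.9 and 14.1 (-1.09 ± 0.05, adjusted p = 2.88e-06). Rfxank, a subunit of the X box factor RFX, rose (0.95 ± 0.10), as did Creb1 (0.78 ± 0.07), the interferon receptor chain Ifnar1 (0.89 ± 0.07) and Irf8 (0.53 ± 0.08). Of the 3 NF-Y subunits, Nfya (-0.43 ± 0.06) fell with Nfyc and Nfyb (0.27 ± 0.08) rose, and the RFX subunits other than Rfxank did not pass the test. Ciita, the coactivator of class II genes, held 0 to 4 reads in each of the 9 libraries, so that no difference was detectable at this depth.

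Of 10 tested genes of class II and Cd74 partners, 4 rose, 3 fell and 3 did not pass the test, beside 37.6% rising and 36.5% falling among all genes. The class II genes themselves were low. H2-Ab1, a chain of the I-A molecule, was at 0.459, 0.363 and 0.660 FPKM in NC siRNA, at 0.259, 0.451 and 0.258 in SFRP2 siRNA and at 1.86, 1.60 and 1.30 in RAB6A siRNA (log2 fold change against NC siRNA 1.52 ± 0.24, adjusted p = 0.000682, or 0.79 with 1 FPKM added). H2-Oa, a subunit of the inhibitor of peptide loading H2-O, was at 0.154, 0.136 and 0.368 FPKM in NC siRNA and at 1.86, 1.58 and 1.84 in RAB6A siRNA (2.61 ± 0.30, adjusted p = 0.000136, or 1.18 with 1 FPKM added). Both were above the NC siRNA range in all RAB6A siRNA libraries and more than 100 times below Cd74 in FPKM there. Their NC siRNA means, 0.494 FPKM for H2-Ab1 and 0.219 for H2-Oa, were below the filter of 0.5 FPKM. They entered the test only through the RAB6A siRNA libraries, where they were high. Their adjusted p and their place among the 4 are therefore only a description. H2-DMa, a subunit of the peptide exchange factor, fell by 0.86 from 1.02, 0.806 and 1.19 FPKM to 0.575, 0.337 and 0.637 (adjusted p = 0.0196), a call that was lost without NC siRNA library 1 or 3. Its log2 fold change was -0.40 with 1 FPKM added and -1.51 on quantile-normalized values. H2-Aa, the partner chain of H2-Ab1, was at 0.130 FPKM or less in every library, and H2-Eb1 at 0.354 or less. H2-DMb1 and H2-DMb2 were at 0.198 or less, and H2-Ob was at 0.271 to 0.319 in RAB6A siRNA and at 0.0447 or less elsewhere, all below the filter for testing.

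Among genes that handle Cd74, the asparaginyl endopeptidase Lgmn rose (0.73 ± 0.06, adjusted p = 2.89e-05, or 0.47 on quantile-normalized values) and Sppl2a, the intramembrane protease that removes its last fragment, fell (-0.38 ± 0.06, adjusted p = 0.000948). Ctss, the cathepsin that cuts it in antigen-presenting cells, was at 477.1, 503.2 and 483.6 FPKM in NC siRNA and 489.0, 478.5 and 451.5 in RAB6A siRNA and did not pass the test (-0.05), but it passed on quantile-normalized values (-0.58, adjusted p = 0.000123) and with the GC and length correction (-0.24, adjusted p = 0.013). Mif, the cytokine that binds Cd74, was higher in RAB6A siRNA (0.64 ± 0.09, adjusted p = 0.000449), but its log2 fold change was -0.10 with the GC and length correction and 0.16 on quantile-normalized values. Ifi30, a thiol reductase of the endosome, fell by 0.22 (adjusted p = 0.0213), a call that was lost on quantile-normalized values (-0.11) and without NC siRNA library 2 or 3, whereas with the GC and length correction it was at -0.66 (adjusted p = 0.0002).

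**Figure D5:**
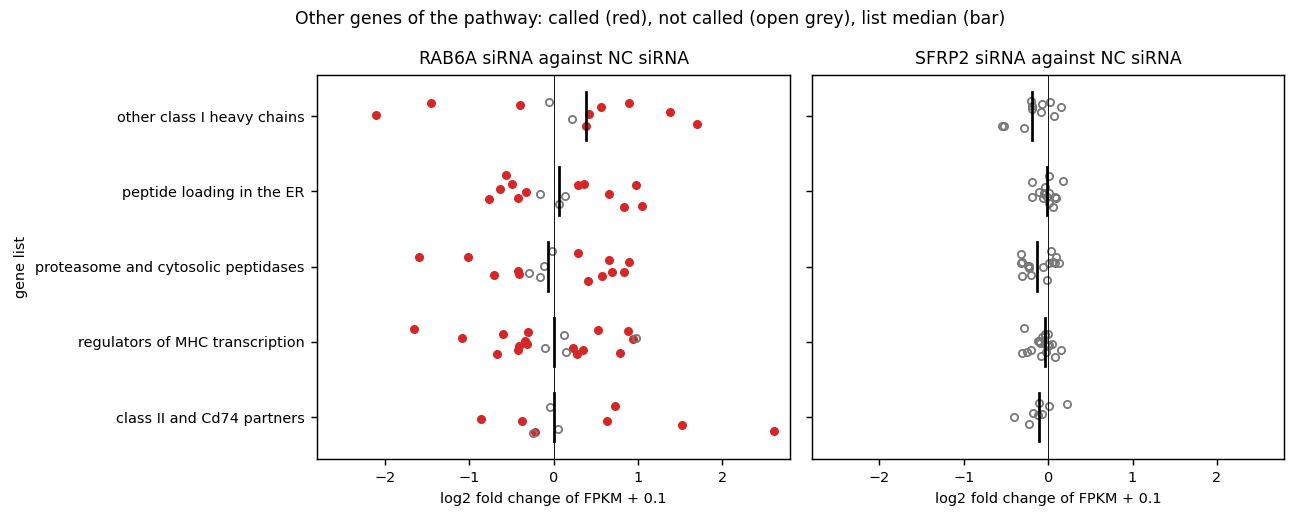
Log2 fold change of FPKM + 0.1 for the other genes of the pathway in 5 lists (rows), for RAB6A siRNA (left) and SFRP2 siRNA (right) against NC siRNA. Red points passed an adjusted p of 0.05 in the limma fit, open points did not, and black bars are list medians. On the left 56 of 72 genes passed, on the right 0 of 69.

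In SFRP2 siRNA none of the 69 tested genes of the 5 lists passed the test by limma, 2 being higher and 20 lower at an unadjusted p under 0.05 (929 and 1291 of the 12017 genes tested), and voom called Mif and Thop1 lower. Their median was -0.06, beside -0.01 over all genes. Of the 11 other heavy chains, 5 were below NC siRNA without overlap and none above, beside 13.9% and 10.9% of all genes. H2-Q1 was at 3.76, 3.89 and 4.28 FPKM in NC siRNA and at 3.09, 2.82 and 2.35 in SFRP2 siRNA (-0.52 ± 0.11, adjusted p = 0.167), and H2-M3 at -0.29 ± 0.08 (adjusted p = 0.185). Irf1 was at 26.8, 25.0 and 24.3 FPKM in SFRP2 siRNA, below its NC siRNA range (-0.31 ± 0.05, adjusted p = 0.163), and Irf8 was at -0.25 ± 0.07 (adjusted p = 0.184). Psmb6 (-0.31 ± 0.06) and Thop1 (-0.32 ± 0.05) had adjusted p of 0.165 and 0.163, Tapbpl (-0.19 ± 0.06) 0.188, Lnpep (0.18 ± 0.06) 0.212, Mif (-0.41 ± 0.08) 0.165 and Lgmn (-0.22 ± 0.06) 0.178. Lnpep was above its NC siRNA range and the other genes named here were below theirs. With the GC and length correction Lnpep was at 0.05, Tapbpl at -0.12, Thop1 at -0.22 and Mif at -0.30.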

How the data were processed

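RNA-seq of 9 RAW264.7 libraries was used, 3 per group as given by the labels. The authors deposited FPKM per gene, that is, fragments per length and library size, made with HISAT2, Subread and featureCounts per the labels' processing notes. Versions, genome build and annotation are not given in the sources used here. Of 28137 identifiers, 27533 were named in GENCODE M21 (GRCm38), whose coordinates are printed, and 604 were not. FPKM times M21 exon length was a whole number of reads (within 0.03) in all 9 libraries for 27080 genes, 98.4% of those named, which gave the depth and the reads.

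limma 3.58.1 in R 4.3.3 was fitted to log2(FPKM + 0.1) within the 6 libraries being compared, after dropping genes whose average there was below 0.5 FPKM (lmFit, eBayes with trend, Benjamini-Hochberg over all genes, adjusted p under 0.05). Fold changes are on that scale and understate those of low genes. A gene could pass the filter through a single group. The study's methods name a test for counts, and the deposited values are not counts. Alternatives were other pseudocounts (1 and 0.01), no filter or a mean FPKM of 1, median-of-ratios and quantile scaling, all 9 libraries in a single fit, a replicate block, voom on recovered reads and leaving out each library. A correction for GC content and length (natural splines, 5 degrees of freedom) was chosen after seeing the data. The fits were also run on simulated data with the spread of the NC and SFRP2 siRNA libraries and few changed genes. That setting is unlike the RAB6A siRNA comparisons, and nothing here rests on it.

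The 10 genes, the 5 pathway lists and the marker lists were chosen with earlier results of these data known. The list genes named were all heavy chains with a mean FPKM of at least 0.5 and, per other list, up to 5 with the largest called change in RAB6A siRNA without overlap and a mean FPKM of at least 1, and up to 2 with the smallest p in SFRP2 siRNA. The H2 genes of the class II list and Ciita were named too. Ctss, Cast, Psmb8, Psmb9, Psmb10, Psme1, Psme2, Sec61a1, Calr, Canx, Nfya, Nfyb and single cell type markers were named after their values were seen. Windows of 50 bases of transcripts were compared for shared sequence. Promoter sequences are RefSeq's (GRCm38.p6). Python 3.11.15 with pandas 2.3.3 and numpy 2.4.6 was used for other steps.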

Additional observations from a re-analysis of the deposited data

How the results depend on the processing

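Counts of genes called moved by over 1.5 times under voom on recovered reads in SFRP2 siRNA against NC siRNA, where 47 genes passed (14 higher, 33 lower) instead of 0, with H2-T23 among the 10 genes and 2 genes of the pathway lists (Mif and Thop1) instead of 0. No value reversed among the counts. Leaving out each library in turn gave 8807 to 9267 genes called and 53 to 57 pathway genes in RAB6A siRNA against NC siRNA (9418 and 56 with all libraries), 8629 to 9083 and 54 to 59 in RAB6A siRNA against SFRP2 siRNA (9369 and 58), and 0 to 1 and 0 to 0 in SFRP2 siRNA against NC siRNA, where the 1 gene passed without NC siRNA library 1. Library numbers did not pair the groups: deviations of same-numbered libraries from their group means correlated at -0.08 to 0.05 over 9 pairs. With the number as a replicate block, 9103 genes were called in RAB6A siRNA against NC siRNA, 9159 in RAB6A siRNA against SFRP2 siRNA and 0 in SFRP2 siRNA against NC siRNA.

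For the log2 fold changes of the 10 genes, 153 of 160 alternative values in RAB6A siRNA against NC siRNA moved by less than the replicate spread, as did 153 of 160 in SFRP2 siRNA against NC siRNA and 148 of 160 in RAB6A siRNA against SFRP2 siRNA. The other filters, the single fit of all 9 libraries and the replicate block cannot change these values. Leaving out a single library cannot move a value by as much as the replicate spread used here. Values from these settings were thus counted as stable in advance, and the counts overstate stability. Over the 3 comparisons, 16 values moved and 14 did not with the GC and length correction. On quantile-normalized values 9 moved and 21 did not. Signs changed 9 times, for B2m and Tapbp in SFRP2 siRNA against NC siRNA, where both were near 0. The cause of the moves was not tested. Depth limits Sfrp2, Ciita and most class II genes, and the 10 genes are limited by the spread of 3 libraries and by allele differences from the reference.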

Other observations

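Over the 9 libraries, the genes whose log2 level was most like that of Cd74, among 6512 genes averaging 5 FPKM or more, were Flot1, Nucb1, Kif21b, Rnf157 and Aldoa (Pearson r 0.998 to 0.999). The libraries fall into 2 sets, RAB6A siRNA and the rest, and 1091 genes had an r above 0.95 with Cd74, so that this likeness mostly describes that division. For Nlrc5, which varied within all groups, only 2 genes had an r above 0.95. The most like were Faap20 (0.972), Otud5 (0.959), Rps27a (0.949), Mt1 (0.948) and Tcirg1 (0.940).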
